A study of Mus musculus with 12 samples.

Results

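The 31 genes described here are a list of cholesterol and fatty acid synthesis genes together with the control proteins of the SREBP pathway. They were found by symbol in both expression tables of a study of mouse regulatory T cells (Treg), 31 of 16232 genes in the in vivo table and 31 of 24421 in the in vitro table. Of these, 30 passed the floor of a mean of at least 1 FPKM and were tested in each table. Fads2 did not pass in either. FPKM correct the fragments of a gene for its length and for the size of the library, so levels of different genes are compared per length.

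The study holds 12 libraries of polyadenylated RNA in 6 groups of 2. All came from Treg of mouse spleen and lymph nodes, labelled either wild type (WT) or conditional knockout of Kdm2b (cKO), the gene of a histone demethylase in a Polycomb complex. Each genotype was sequenced in vivo, after culture without stimulation and after stimulated culture. The sources used here do not give the stimulus, the Cre driver of the conditional allele, or the strain and age of the mice. The labels do not say whether the 2 libraries of a group are of different animals or cultures. The p-values below therefore cover the spread of these libraries alone, which may be technical. The in vivo columns carry no replicate number, and "first" and "second" library follow the table's order there.

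Read depth is unknown here, so no counting interval is given. Library sums ran from 461753 to 475374 FPKM in vivo and from 369720 to 438763 FPKM in vitro, and the 31 genes made up 0.131% to 0.182% of each sum. Foxp3, the defining transcription factor of Treg, was present in every library, between 106 and 117 FPKM in vivo. In culture it was lower in cKO without overlap, at 194 and 189 FPKM in WT against 71.5 and 82.6 FPKM in cKO unstimulated (log2 fold change -1.31, adjusted p = 0.0636), and at 529 and 696 FPKM in WT against 238 and 268 FPKM in cKO stimulated (log2 fold change -1.26, adjusted p = 0.0769). Neither passed the test. None of 10 Treg and CD4 T cell markers was listed at 0 in any library. In culture the WT replicate 2 libraries stood apart, with 12379 and 13273 genes listed at 0 against 9102 to 9857 in the other 6 libraries. Haemoglobin genes took 11.6% and 10.3% of the FPKM in the cKO replicate 1 libraries in vitro and at most 1.86% in the others. The level of Kdm2b over the whole gene does not check the genotype labels, because a floxed gene may lose only some exons. WT and cKO stand for the libraries labelled so.

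Cells make cholesterol from acetyl-CoA through mevalonate, isoprenoid intermediates and squalene, and make fatty acids from acetyl-CoA through malonyl-CoA. SREBP proteins, the products of Srebf1 and Srebf2, are transcription factors held in the endoplasmic reticulum by Scap and the Insig proteins when sterols are plentiful. When sterols fall they are carried to the Golgi, cut, and released to the nucleus, where they raise the genes of both pathways. T cells raise sterol and fatty acid synthesis when they are activated and grow, and Treg use mevalonate pathway products for their function.

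Scd1 and Scd2 are the stearoyl-CoA desaturases, which turn saturated into monounsaturated fatty acids. Scd1 lies on chr19:44394455-44407879 (minus strand) and Scd2 on chr19:44293674-44306864 (plus strand) of GRCm38. The pair is shown because Scd1 carried the genotype differences and its reads can be shared with its paralogs. The lines give coding sequence of the GENCODE transcripts on the mRNA strand. Capitals mark the longest stretch identical in both, 147 bases, at bases 523 to 669 of 1068 in Scd1 and 532 to 678 of 1077 in Scd2, with 30 flanking bases in lower case.
Scd1: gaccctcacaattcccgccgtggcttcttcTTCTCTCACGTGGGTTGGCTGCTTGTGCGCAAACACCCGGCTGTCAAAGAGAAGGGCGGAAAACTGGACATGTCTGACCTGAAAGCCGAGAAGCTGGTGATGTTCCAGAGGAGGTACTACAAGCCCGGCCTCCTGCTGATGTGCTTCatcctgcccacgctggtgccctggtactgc
Scd2: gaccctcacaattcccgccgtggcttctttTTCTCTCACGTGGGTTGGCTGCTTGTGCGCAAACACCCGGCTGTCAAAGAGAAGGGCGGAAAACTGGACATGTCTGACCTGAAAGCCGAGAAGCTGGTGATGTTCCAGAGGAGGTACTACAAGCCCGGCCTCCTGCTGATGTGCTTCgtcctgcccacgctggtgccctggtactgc
Over the annotated transcripts, 4.56% of the 50-base words of Scd1 and 3.97% of those of Scd2 also occurred in another gene, Scd1, Scd2, Scd3 or Scd4 among them. The sources used here do not give how the authors' counting split such reads, so part of each value is uncertain.

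Among all members, words shared with other genes made up 30.4% in Acaca, 26.2% in Fdps, 17.7% in Idi1, 9.87% in Tm7sf2, 9.38% in Fdft1 and at most 4.56% in the others. Exons of Fdft1 overlapped those of Ctsb on the opposite strand over 18.3% of their bases. Exon overlaps also covered 26.7% of Fdps (Gm43738, same strand), 13.2% of Scap (5830462I19Rik, opposite strand), 12.1% of Hmgcs1 (antisense Gm48342) and 12.1% of Tm7sf2 (Vps51, same strand), and less than 10% of any other member. Values of these genes carry the same uncertainty.

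Promoter windows of 250 bases before the RefSeq start were found for 25 of the 31 members (RefSeq, GRCm38.p6). They were searched on both strands for the sterol regulatory element TCACNCCAC, the E-box CACGTG, which SREBP proteins can also bind, and the CCAAT box. Motifs could overlap each other. The sterol regulatory element was in the window of 1 of 25 members (4%), Hmgcs1, and of 1.22% of 27025 genes. The E-box was in 6 of 25 (24%) and in 6.86% of all genes. The CCAAT box was in 20 of 25 (80%) and in 37.5% of all genes. A match is a description of these letters only. The Hmgcs1 window, chr13:119690101-119690350 (plus strand), is shown as the one with all of a sterol regulatory element, 137 to 129 bases before the start, and 3 CCAAT boxes, in capitals. The Elovl6 window is shown because Elovl6 carried the response to stimulation, and none of the motifs was in it. It is printed over chr3:129532136-129532354 (plus strand), without the 31 bases that lie within the GENCODE gene.
Hmgcs1: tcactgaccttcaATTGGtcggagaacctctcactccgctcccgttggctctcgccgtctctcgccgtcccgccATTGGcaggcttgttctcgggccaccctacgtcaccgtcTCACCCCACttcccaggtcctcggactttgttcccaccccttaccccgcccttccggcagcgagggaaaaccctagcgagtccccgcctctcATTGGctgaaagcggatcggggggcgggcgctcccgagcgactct
Elovl6: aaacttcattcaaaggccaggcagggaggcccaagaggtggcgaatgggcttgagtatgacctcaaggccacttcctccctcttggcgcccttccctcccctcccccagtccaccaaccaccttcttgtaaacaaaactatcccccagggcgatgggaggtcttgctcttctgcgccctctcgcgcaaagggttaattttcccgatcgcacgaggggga

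The levels of the 31 genes were led in WT Treg in vivo by Elovl5, which elongates polyunsaturated fatty acids, at 151 ± 12 FPKM (SD, n = 2). Insig1, the sterol-regulated SREBP anchor, followed at 77.3 ± 4.86 FPKM, Srebf2, the regulator of sterol genes, at 59.1 FPKM and Acly, which supplies cytosolic acetyl-CoA, at 47.2 FPKM. The lowest were Tm7sf2, a sterol reductase, at 2.47 FPKM, Lss, lanosterol synthase, at 1.53 FPKM and Fads2, a desaturase of polyunsaturated fatty acids, at 0.170 FPKM. In unstimulated WT culture Elovl5 was again first, at 87.9 FPKM, and Srebf2 second, at 65.3 FPKM. In stimulated culture Srebf2 was first in both genotypes, at 78.3 FPKM in WT and 81.9 FPKM in cKO. The tables were normalized separately, so levels across them are set side by side with no test.

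**Figure D1:**
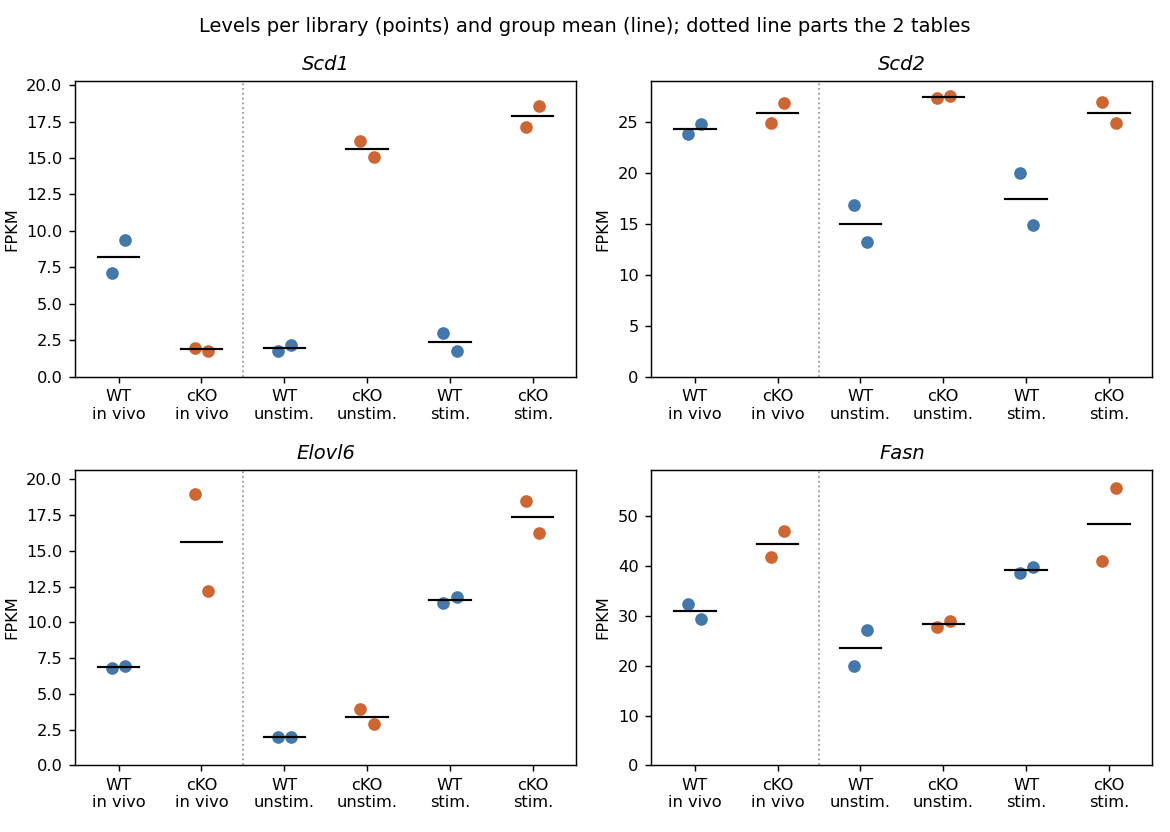
FPKM of Scd1, Scd2, Elovl6 and Fasn in each of the 12 libraries (points, blue for WT and orange for cKO) with the group mean (line), and a dotted line between the in vivo and in vitro tables. Scd1 is lower in cKO in vivo (1.79 and 1.99 against 7.09 and 9.35 FPKM) and higher in cKO in culture (15.1 to 18.6 against 1.74 to 2.98 FPKM), and Elovl6 is higher in every stimulated library than in any unstimulated one.

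The in vivo comparison asks how Treg of the 2 genotypes differ in the animal. Scd1 fell in cKO Treg, and it was the single member of 30 called at an adjusted p under 0.05. Its level was 7.09 and 9.35 FPKM in the WT libraries against 1.99 and 1.79 FPKM in the cKO libraries. The groups did not overlap. The log2 fold change was -1.66 (SE 0.16, 95% interval -2.05 to -1.27, limma adjusted p = 0.0261), on the log2(FPKM + 1) scale used throughout, which understates the change of low genes. Of all 10415 genes tested, 0.374% were called. The Scd1 call was lost without the second WT library, where the log2 fold change was -1.49 (adjusted p = 0.0680), and with no floor on low genes (adjusted p = 0.292). In bulk RNA, fewer cells of a type and less RNA per cell cannot be told apart.

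Scd2 did not follow Scd1 in vivo, with 23.8 and 24.8 FPKM in WT and 24.9 and 26.8 FPKM in cKO (log2 fold change 0.09). Fads1, the delta-5 desaturase, was at 3.34 and 3.46 FPKM in WT and 3.39 and 3.83 FPKM in cKO. Fads2 was at 0.250 and 0.0900 FPKM in WT and 0.50 and 0.60 FPKM in cKO, under the floor.

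Elovl6, which elongates palmitate to stearate, had the next smallest p in vivo. It was at 6.81 and 6.93 FPKM in the WT libraries against 19.0 and 12.2 FPKM in the cKO libraries, without overlap. Its log2 fold change of 1.05 (SE 0.20) did not pass the test (adjusted p = 0.0986). Fasn, the fatty acid synthase, was at 32.4 and 29.4 FPKM in WT and 41.8 and 47.0 FPKM in cKO (log2 fold change 0.51, SE 0.11, adjusted p = 0.149). Msmo1, the methylsterol monooxygenase of the pathway, was at 11.4 and 9.46 FPKM in WT and 13.4 and 19.1 FPKM in cKO (log2 fold change 0.58, SE 0.19, adjusted p = 0.288). For each of these 3 genes both cKO libraries lay above both WT libraries.

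Over the 30 members, both cKO libraries lay above both WT libraries for 9 (21.5% of all genes tested) and below for 2 (25.8%), Scd1 and the sterol dehydrogenase gene Nsdhl. The median log2 fold change of the members was 0.18, against -0.02 for all genes tested, and 23 of 30 were above 0. By role, it was 0.69 over the 2 elongases, 0.25 over the 7 mevalonate and isoprenoid genes, 0.19 over the 5 SREBP control genes, 0.14 over the 10 genes of the steps from squalene, 0.07 over the 3 tested desaturases and 0.01 over the 3 fatty acid synthesis genes. Mvk, mevalonate kinase, had a log2 fold change of 0.86 (SE 0.40) that rested on the first cKO library, at 58.7 FPKM against 16.2, 24.5 and 23.3 FPKM in the other 3.

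**Figure D2:**
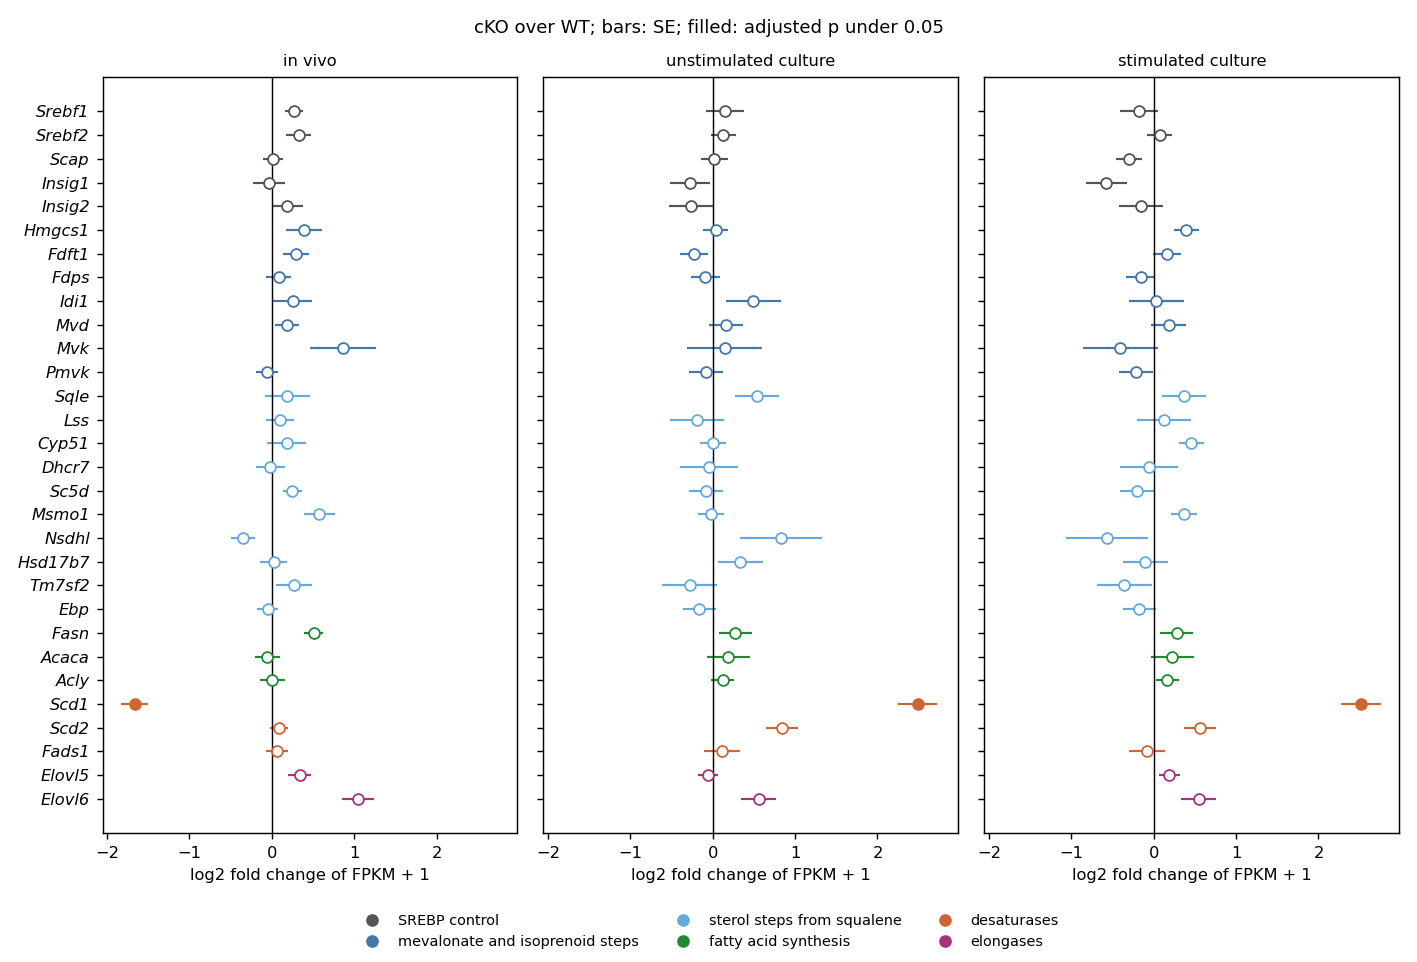
Log2 fold change of FPKM + 1 for cKO over WT (horizontal axis; bars are SE) of the 30 tested members in 3 panels, in vivo, unstimulated and stimulated culture, coloured by role, with filled points for an adjusted p under 0.05. Scd1 is the one filled gene in each panel, at -1.66 in vivo and at 2.49 and 2.51 in culture.

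The 2 cKO libraries in vivo were not alike for sterol synthesis. The second cKO library was the highest of the 4 for 20 of 30 members (66.7%), against 22.5% of all genes tested, and for 12 of the 17 genes from Hmgcs1 to Dhcr7 (70.6%). Over all genes tested it was the first cKO library that stood apart, as the highest for 31.4% and the lowest for 37.3%. The first cKO library was also the lowest for 7 of the 17 genes (41.2%). These libraries were singled out after their values were seen. Hmgcs1, which makes the HMG-CoA that enters the mevalonate pathway, was at 18.4 and 16.5 FPKM in WT, 18.1 FPKM in the first cKO library and 29.7 FPKM in the second. Cyp51, lanosterol demethylase, was at 35.0 and 30.6 FPKM in WT against 28.5 and 48.6 FPKM in cKO. Sqle, squalene epoxidase, was at 8.94 and 7.81 FPKM in WT against 6.83 and 13.6 FPKM in cKO. In each of these genes only the second cKO library stood above the WT pair by more than the WT libraries differed from each other.

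Insig1 was likewise highest in the second cKO library, at 80.7 and 73.8 FPKM in WT against 60.5 and 93.6 FPKM in cKO. Idi1, the isomerase that makes dimethylallyl diphosphate, was at 12.7 and 9.56 FPKM in WT against 10.4 and 17 FPKM in cKO. Relative to the WT mean, the median of the 17 genes was -0.03 on the log2 scale in the first cKO library and 0.27 in the second, with 8 and 14 of 17 above it. Between the cKO libraries, second over first, the median was 0.27 over all 30 members and 0.02 over all genes tested. It was 0.37 over the mevalonate and isoprenoid genes, 0.43 over the steps from squalene and -0.48 over the 2 elongases. Between the WT libraries the members' median was -0.05. What set the 2 cKO libraries apart was not tested.

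**Figure D3:**
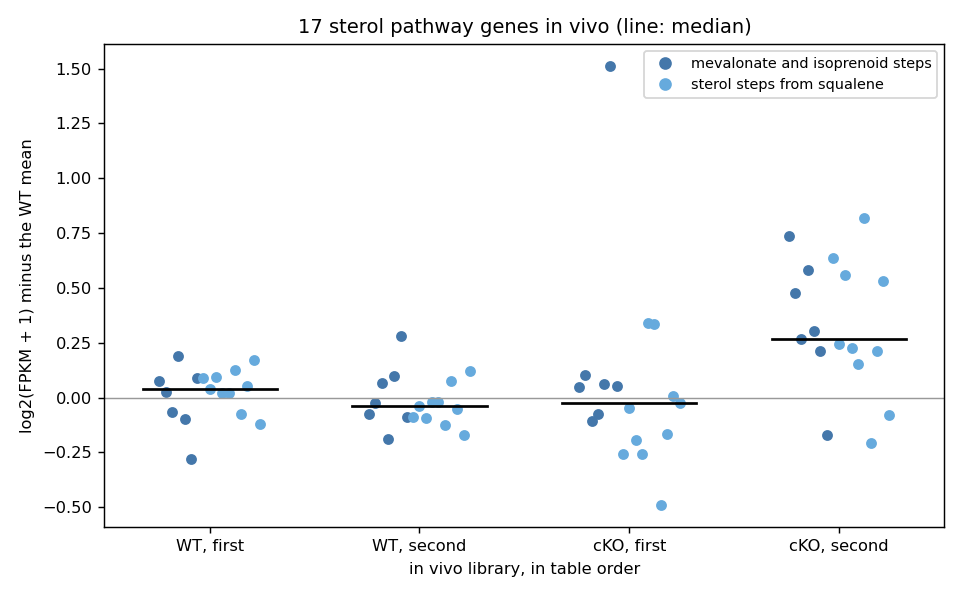
Difference of log2(FPKM + 1) from the WT mean (vertical axis) for the 17 genes of the mevalonate, isoprenoid and squalene steps in each of the 4 in vivo libraries, with the median as a line. The median is 0.27 in the second cKO library and between -0.04 and 0.04 in the other 3.

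The in vivo fold changes of members depended on which cKO library was used. Without the first cKO library the log2 fold change was -1.71 for Scd1, 0.75 for Elovl6 and 0.59 for Fasn. Further examples were Srebf2 (0.52), Hmgcs1 (0.74), Msmo1 (0.82), Cyp51 (0.56) and Sqle (0.64). Without the second cKO library it was -1.61 for Scd1, 1.34 for Elovl6 and 0.42 for Fasn. Further examples there were Elovl5 (0.52), Mvk (1.51), Sc5d (0.34), Insig1 (-0.35) and Nsdhl (-0.49). In these fits 1 cKO library is assumed to vary like the WT pair, so no p-value or call from them is used as a result. The further examples were picked by their p in these fits, after it was seen. They do not stand for the other members. Scd1 was lower and Elovl6 and Fasn were higher in cKO in both fits. The members' median log2 fold change was 0.00 without the second cKO library.

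The unstimulated comparison asks how the genotypes differ after culture without the stimulus. Scd1 rose in cKO, opposite to its direction in vivo. Its level was 1.76 and 2.18 FPKM in the WT libraries against 16.2 and 15.1 FPKM in the cKO libraries, without overlap. The log2 fold change was 2.49 (SE 0.24, 95% interval 1.93 to 3.04, limma adjusted p = 0.0189). It was the single called member, and 0.0747% of 10710 genes tested were called. The call was lost when either WT unstimulated, either cKO unstimulated or either cKO stimulated library was left out (adjusted p between 0.0519 and 0.304), with log2 fold changes between 2.39 and 2.59. It was also lost with no floor on low genes (adjusted p = 0.157).

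Scd2 was at 16.8 and 13.2 FPKM in unstimulated WT and at 27.4 and 27.6 FPKM in cKO. Its groups did not overlap, and its log2 fold change of 0.84 (SE 0.19) did not pass the test (adjusted p = 0.270). Elovl6 was at 1.96 and 1.97 FPKM in WT against 3.93 and 2.86 FPKM in cKO (log2 fold change 0.56, adjusted p = 0.693). Sqle was at 3.76 and 6.99 FPKM in WT against 8.42 and 7.54 FPKM in cKO (log2 fold change 0.54, adjusted p = 0.812).

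Cyp51 and Hmgcs1 were near equal between the genotypes here. Cyp51 was at 13.5 and 13.9 FPKM in WT against 13.5 and 14.0 FPKM in cKO, and Hmgcs1 at 16.2 and 17.9 FPKM in WT against 18.3 and 16.7 FPKM in cKO. Over the 30 members, cKO libraries lay above WT without overlap for 8 (17.8% of all genes tested) and below for 2 (16.6%). The median log2 fold change was 0.07, against 0.02 for all genes tested, with 18 of 30 above 0. It was 0.84 over the 3 desaturases, 0.19 over the 3 fatty acid synthesis genes and -0.03 over the 10 steps from squalene. Nsdhl, at 6.62 and 1.21 FPKM in WT and 6.41 and 6.17 FPKM in cKO, differed through the WT replicate 2 library.

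The stimulated comparison asks how the genotypes differ after the stimulus. Scd1 was again higher in cKO, at 17.1 and 18.6 FPKM against 2.98 and 1.74 FPKM in WT, without overlap. The log2 fold change was 2.51 (SE 0.24, 95% interval 1.96 to 3.07, limma adjusted p = 0.0379). It was 1 of 2 genes called, 0.0187% of 10710. The call was lost without either cKO stimulated, either cKO unstimulated or the WT stimulated replicate 2 library (adjusted p between 0.0990 and 0.377), and with the replicate number as a block (adjusted p = 0.0520). In these fits the log2 fold change stayed between 2.24 and 2.57. It was also lost with a pseudocount of 0.1, with no floor and with only these 4 libraries fitted (adjusted p between 0.0705 and 0.106).

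Cyp51 was at 16.1 and 15.2 FPKM in stimulated WT and at 20.6 and 23.1 FPKM in cKO (log2 fold change 0.46, SE 0.16, adjusted p = 0.253). Scd2 was at 20.0 and 14.9 FPKM in WT against 26.9 and 24.9 FPKM in cKO (log2 fold change 0.56, adjusted p = 0.263). Hmgcs1 was at 18.4 and 17.2 FPKM in WT against 23.1 and 24.3 FPKM in cKO (log2 fold change 0.39, adjusted p = 0.311). In these 3 genes both cKO libraries lay above both WT libraries, and none passed the test.

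Over the 30 members, cKO libraries lay above WT without overlap for 12 (18.5% of all genes tested) and below for 5 (29.8%), in stimulated culture. Insig1 was among the latter, at 39.1 and 60.4 FPKM in WT against 29.2 and 35.8 FPKM in cKO (log2 fold change -0.58, adjusted p = 0.349). Over all 30, the median log2 fold change was 0.05, against -0.05 for all genes tested, with 16 of 30 above 0. By role it ran from 0.56 over the 3 desaturases to -0.18 over the 5 SREBP control genes.

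Transcripts of B cells differed in the direction of Scd1 in all 3 genotype comparisons. Cd79a, which signals for the B cell receptor, was at 17.6 and 26.1 FPKM in WT against 5.52 and 6.97 FPKM in cKO in vivo (log2 fold change -1.64, adjusted p = 0.0400). In unstimulated culture it was at 9.45 and 8.90 FPKM in WT against 49.1 and 65.3 FPKM in cKO (log2 fold change 2.50, adjusted p = 0.0189). Stimulated, it was at 17.3 and 9.94 FPKM in WT against 33.0 and 33.4 FPKM in cKO. Like Scd1, Cd79a was lower in cKO in vivo and higher in cKO in culture, without overlap each time.

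Of 16 listed B cell genes, 14 were in the tables. All 12 tested in vivo had a negative log2 fold change (median -1.10, 2 called). All 13 tested in culture had a positive one (median 1.90 with 2 called unstimulated, 1.89 with 1 called stimulated). Without Cd37, which T cells also express at a high level, the summed FPKM in vivo were 68.4 and 87.2 in WT and 23.0 and 32.9 in cKO. Unstimulated, they were 40.6 and 46.0 in WT and 231 and 247 in cKO, and stimulated, 58.7 and 45.7 in WT and 195 and 193 in cKO. No B cell gene was listed at 0 outside the WT replicate 2 libraries in vitro, where Fcrla was at 0 unstimulated and Cd22, Fcrla and Cr2 were at 0 stimulated.

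Other marker lists were also higher in the cKO libraries in culture. Haemoglobin genes took 0.00678% and 0.335% of the FPKM in unstimulated WT and 11.6% and 1.33% in cKO, and 0.0812% and 0.548% in stimulated WT and 10.3% and 1.86% in cKO. The 16 myeloid genes summed to between 25.4 and 34.7 FPKM in the WT and between 50.8 and 210 FPKM in the cKO libraries in vitro. In vivo they summed to 84.6 and 84.1 FPKM in WT against 54.8 and 79.6 FPKM in cKO, and 10 of the 13 tested there had a negative log2 fold change (median -0.31, 0 called, 2 lower at an unadjusted p under 0.05). In culture the median of the 9 tested was 1.12 unstimulated and 1.09 stimulated, with 0 called, so this list too lay in the direction of Scd1 in all 3 comparisons. So did the median of the CD8 T and NK list, with 0 called. It was -0.19 in vivo, with 7 genes below and 2 above 0. In culture it was 0.94 unstimulated and 0.71 stimulated, with 4 genes above and 1 below 0 in each. In the WT replicate 2 libraries 5 (unstimulated) and 8 (stimulated) of the 10 listed genes were at 0. No other in vitro library had one of them at 0. Their sums were 21.2 and 24.8 FPKM in WT replicate 1. They were 35.7 and 34.4 FPKM in cKO replicate 1, and 22.1 and 27.3 FPKM in cKO replicate 2. Of the 16 myeloid genes, 9 and 11 were at 0 in WT replicate 2, against 1 to 4 in the others in vitro. The part of these zeros in the medians was not tested. With both cKO replicate 1 libraries left out, the Scd1 log2 fold change was 2.44 unstimulated (adjusted p = 0.997) and 2.57 stimulated (adjusted p = 0.745). This fit was added after seeing the data. Foxp3 was lower in the cKO libraries in culture, with the values given at the start. The part of these transcripts in the Scd1 differences was not tested.

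**Figure D4:**
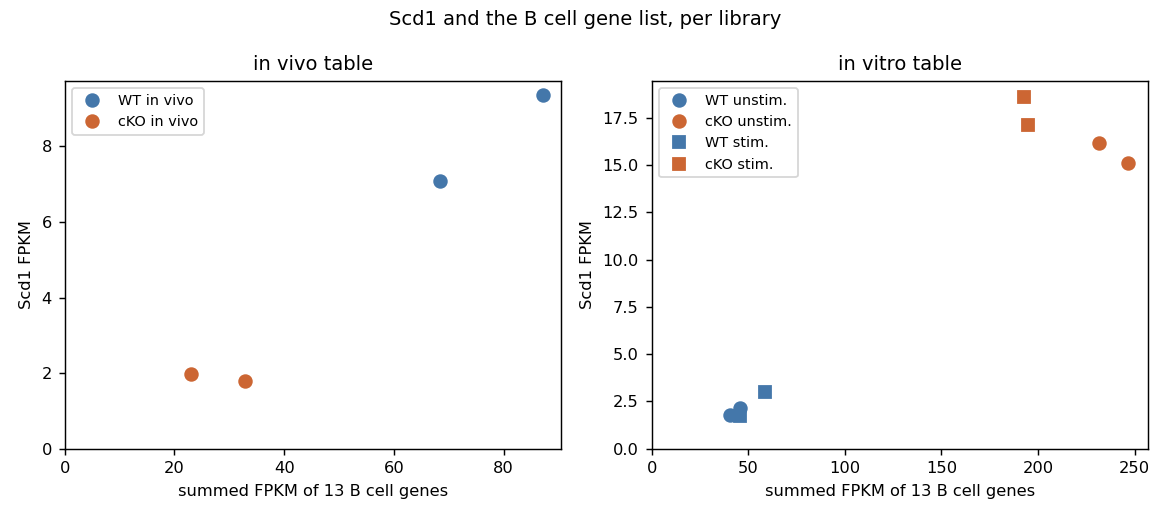
Scd1 FPKM (vertical axis) against the summed FPKM of the 13 measured B cell genes other than Cd37 (horizontal axis), 1 point per library, in vivo on the left and in vitro on the right, with squares for stimulated libraries. The libraries high in one are high in the other, WT in vivo (68.4 and 87.2 on the horizontal axis) and cKO in vitro (193 to 247).

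Stimulation of WT Treg asks which members respond to the stimulus. Elovl6 rose from 1.96 and 1.97 FPKM in the unstimulated to 11.4 and 11.8 FPKM in the stimulated libraries, without overlap. The log2 fold change was 2.09 (SE 0.21, 95% interval 1.59 to 2.58, limma adjusted p = 0.00447). It was the single member called among the 30, and 2.43% of all genes tested were called. The call held with each of the 8 in vitro libraries left out in turn, and was lost when only the 4 WT libraries were fitted (adjusted p = 0.0670) or both cKO replicate 1 libraries were left out (adjusted p = 0.0674).

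Fasn was at 19.9 and 27.1 FPKM in unstimulated and at 38.7 and 39.8 FPKM in stimulated WT (log2 fold change 0.73, SE 0.20, adjusted p = 0.112). Elovl5 was at 92.2 and 83.7 FPKM unstimulated and at 66.2 and 68.3 FPKM stimulated (log2 fold change -0.38, SE 0.12, adjusted p = 0.163). Hsd17b7, a ketosteroid reductase of the sterol branch, was at 1.92 and 1.62 FPKM unstimulated and at 3.09 and 4.80 FPKM stimulated (log2 fold change 0.82, adjusted p = 0.171). None of these 3 passed the test, and none overlapped between the states.

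Over the 30 members in WT, stimulated libraries lay above unstimulated for 11 (18.8% of all genes tested) and below for 4 (22.9%). The median log2 fold change was 0.08, against -0.04 for all genes tested, with 16 of 30 above 0. It was 0.44 over the 3 fatty acid synthesis genes, 0.25 over the SREBP control genes, -0.02 over the mevalonate and isoprenoid genes and -0.06 over the steps from squalene. Scd1 had a log2 fold change of 0.15 and Hmgcs1 of 0.06.

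Stimulation of cKO Treg gave Elovl6 a rise of like size. It was at 3.93 and 2.86 FPKM unstimulated and at 18.5 and 16.3 FPKM stimulated, without overlap. The log2 fold change was 2.07 (SE 0.21, 95% interval 1.58 to 2.57, limma adjusted p = 0.00422), and it was again the single member called, with 4.58% of all genes tested called. The call was lost without the unstimulated replicate 2 or either stimulated cKO library, with log2 fold changes between 1.90 and 2.16. It was also lost with both cKO replicate 1 libraries left out.

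Cyp51 was at 13.5 and 14.0 FPKM in unstimulated and at 20.6 and 23.1 FPKM in stimulated cKO (log2 fold change 0.63, SE 0.16, adjusted p = 0.0650). It passed the test with a floor of 5 FPKM and with median-of-ratios scaling or quantile normalization (adjusted p between 0.0376 and 0.0468). It also passed with only the 4 cKO libraries fitted (limma adjusted p = 0.0274). In 14 of 19 alternatives Cyp51 did not pass. Fasn was at 27.7 and 29.0 FPKM unstimulated and at 41.0 and 55.7 FPKM stimulated (log2 fold change 0.73, adjusted p = 0.0851). Pmvk, phosphomevalonate kinase, was at 9.47 and 9.01 FPKM unstimulated and at 5.33 and 5.52 FPKM stimulated (log2 fold change -0.67, adjusted p = 0.114). Fasn and Pmvk too passed with only the 4 cKO libraries fitted (limma adjusted p = 0.0335 and 0.0334). Each of them did not pass in 17 of 19 alternatives. The passes in these settings stand without the share of all genes called there, and are not results about the members. None of the 3 overlapped between the states, Pmvk being lower and the other 2 higher when stimulated.

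Over the 30 members in cKO, stimulated libraries lay above unstimulated for 14 (20.7% of all genes tested) and below for 11 (44.1%). The median log2 fold change was 0.08, against -0.14 for all genes tested. Median-of-ratios scaling moved the median of all genes to -0.02 and that of the members to 0.22, a gap between them of like size. Msmo1, at 19.1 and 17.9 FPKM unstimulated and 24.6 and 22.5 FPKM stimulated, and Fdft1, squalene synthase, at 7.78 and 8.06 FPKM and 11.6 and 11.3 FPKM, were among the 14.

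**Figure D5:**
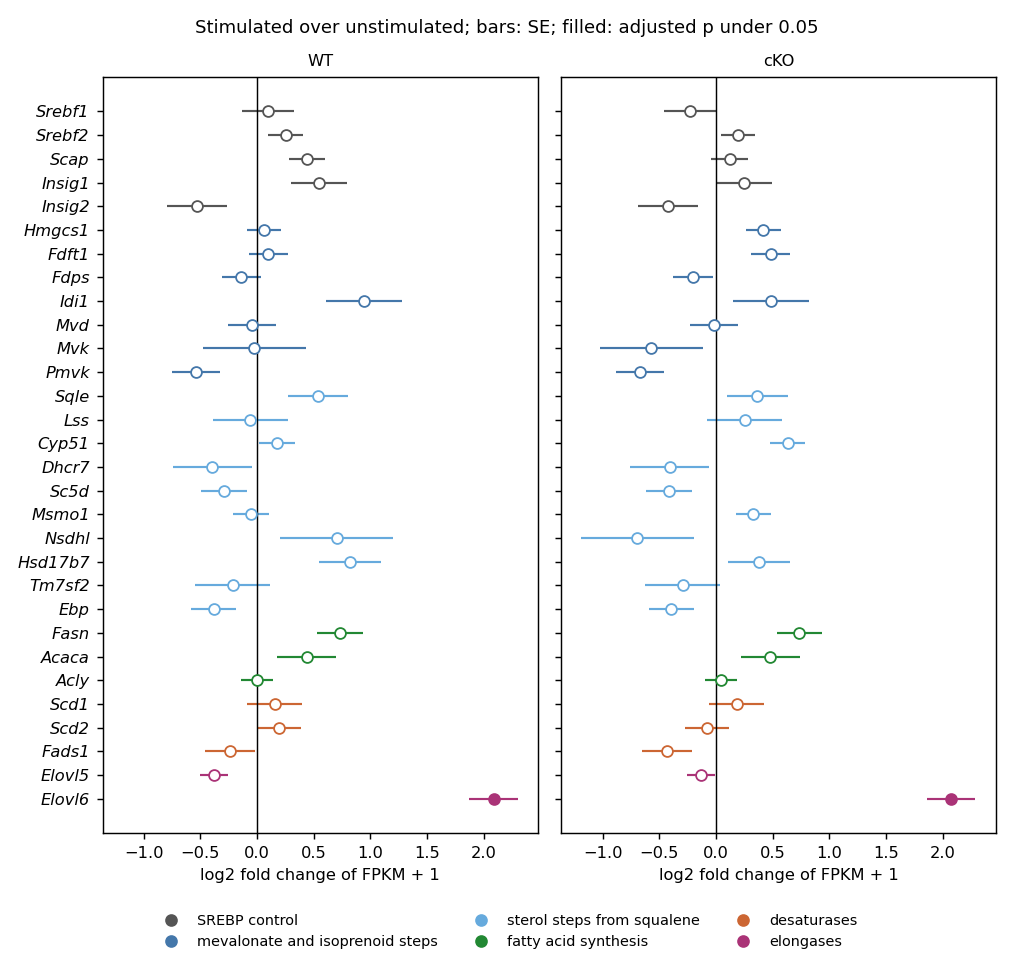
Log2 fold change of FPKM + 1 for stimulated over unstimulated libraries (horizontal axis; bars are SE) of the 30 tested members in WT and in cKO, coloured by role, with filled points for an adjusted p under 0.05. Elovl6 is the one filled gene in both panels, at 2.09 and 2.07, and the others lie within 1 of 0.

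The interaction of genotype and stimulation asks whether the response differs between WT and cKO. No member was called, nor was any of the 10710 genes tested (0%). At an unadjusted p under 0.05 there were 0 members, and 66 genes higher and 314 lower among all. The interaction was -0.01 for Elovl6 and 0.03 for Scd1 (SE 0.30 and 0.34). The smallest p among members belonged to Cyp51 (0.46, SE 0.22), Nsdhl (-1.40, SE 0.70), Msmo1 (0.39, SE 0.22) and Hmgcs1 (0.36, SE 0.22), each with an adjusted p of 0.999. The 95% interval for Cyp51 ran from -0.05 to 0.97, and the one for Nsdhl from -3.02 to 0.23. The Nsdhl value rested in part on the unstimulated WT replicate 2 library, at 1.21 FPKM. It ran from -2.29 to -0.50 over the alternatives. The members' median was -0.04, against -0.08 for all genes tested.

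Fads2 was measured in every library without a test. In culture it was at 0.611 FPKM and listed at 0 in unstimulated WT, and at 1.95 and 0.582 FPKM in cKO. Stimulated, it was at 0.458 FPKM and listed at 0 in WT, and at 1.85 and 0.871 FPKM in cKO. Both values of 0 came from the WT replicate 2 libraries, which had the most genes at 0, and no fold is given.

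Neighbouring lipid genes were examined in 4 further lists. None of them held a called gene in the 3 genotype comparisons or in the interaction. They held 15 tested sterol synthesis and SREBP genes, 14 in vivo and 13 in vitro genes of cholesterol transport, storage and efflux, 17 and 16 of fatty acid uptake, activation and storage, and 13 of fatty acid oxidation. In stimulated WT Treg, Cpt1a, which carries long-chain fatty acids into mitochondrial oxidation, fell from 25.1 and 31.1 FPKM to 14.5 and 11.8 FPKM (log2 fold change -1.04, adjusted p = 0.0401). It was the 1 gene called of these 4 lists in WT, beside 2.43% of all genes tested.

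In stimulated cKO Treg 4 genes of these lists were called, 2 of the 15 sterol synthesis and SREBP genes and 2 of the 16 genes of fatty acid uptake, activation and storage, beside 4.58% of all genes tested. Stard4, a sterol transfer protein, rose from 5.90 and 6.90 FPKM to 14.0 and 15.3 FPKM (log2 fold change 1.08, adjusted p = 0.0341). The acyl-CoA synthetase genes Acsl1 and Acsl4 rose by 1.24 (adjusted p = 0.0256) and 0.88 (adjusted p = 0.0378) on the log2 scale. Rnf145, a ubiquitin ligase of the endoplasmic reticulum, fell from 87.1 and 85.1 FPKM to 53.3 and 57.7 FPKM (log2 fold change -0.63, adjusted p = 0.0404). That these were called in one genotype does not show a difference between the genotypes, and the interaction called none of them.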

How the data were processed

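RNA of 12 Treg libraries was measured. The authors deposited FPKM, fragments scaled to gene length and library total, in 1 table of the 4 in vivo and 1 of the 8 in vitro libraries. HISAT2 2.2.1, StringTie 2.1.1 and the builds mm10 and hg19 are named, with no role, per the submitters' processing notes. The sources used here do not give the annotation. In vivo, 16196 of 16232 Entrez numbers matched a symbol through RefSeq. The tables hold 4 further per-sample columns, which were not used. FPKM are not counts, and whole reads could not be recovered from the low values, so depth is unknown.

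Each table was fitted separately with limma 3.58.1 in R 4.3.3 (lmFit, eBayes with trend, two-sided) on log2(FPKM + 1), on genes averaging 1 FPKM or more (10415 in vivo, 10710 in vitro). The 8 in vitro libraries shared 1 model. Adjusted p-values are Benjamini-Hochberg over all genes tested, called under 0.05. The steps were tested on simulated data. Lists are described by counts and medians, with no list test.

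Groups came from the sample titles. The members and lists were chosen with earlier results of these data known. By rule, full values are given for called members and, where fewer than 4 were called, for those with the smallest p up to 4; further genes with values are described in the text as examples or were picked after their values were seen. Deviations of same-numbered libraries in vitro correlated at 0.24 within WT and 0.42 within cKO, and between -0.14 and 0.06 across genotypes. Since not every pair was above 0.1, the numbers were not taken to pair the samples. Alternatives were other pseudocounts, floors and scalings, a replicate block, fewer samples and leaving out libraries. Sequences are from RefSeq (promoters) and GENCODE vM21 transcripts of GRCm38, as are positions.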

Additional observations from a re-analysis of the deposited data

Results flagged for a closer look

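Scd1 went in opposite directions in the tables. Both cKO libraries lay below both WT libraries in vivo (log2 fold change -1.66) and above them in culture, unstimulated (2.49) and stimulated (2.51). The difference between the systems was not tested, since the tables were normalized separately.

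Fdft1, squalene synthase, was higher in both cKO libraries in vivo, at 6.01 and 8.07 FPKM against 5.64 and 5.40 FPKM in WT (log2 fold change 0.29), and lower unstimulated, at 7.78 and 8.06 FPKM against 9.56 and 9.31 FPKM (log2 fold change -0.23). Neither passed the test in its table, and the difference between them was not tested. Fdft1 shares 18.3% of its exon bases with Ctsb on the opposite strand.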

How the results depend on the processing

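No log2 fold change of a member named by the rule changed sign under any alternative; the members' median did, between -0.02 and 0.14 for cKO over WT stimulated, -0.01 and 0.19 for stimulation in WT and -0.12 and 0.06 for the interaction. For cKO over WT in vivo 1 member was called, 0 with no filter, and 0 to 8 with a library left out. Unstimulated, 1 was called, 0 with no filter, 0 to 1 with a library left out, and 0 with both cKO replicate 1 libraries left out. Stimulated, 1 was called, and 0 with a pseudocount of 0.1, with no filter, with the replicate block, with only the 4 samples compared and with both cKO replicate 1 libraries left out, and 0 to 1 with a library left out. For stimulation in WT 1 was called, 0 with only the 4 samples compared or both cKO replicate 1 libraries left out, and 1 to 2 with a library left out. For stimulation in cKO 1 was called, 2 with median-of-ratios scaling, quantile normalization or a floor of 5 FPKM, and 5 with only the 4 samples compared. The call of Elovl6 there was lost with both cKO replicate 1 libraries left out, and in some fits with 1 library left out. The counts in this paragraph stand without the share of all genes called in the same setting. They show how the calls moved and are not results about the members. The highest counts in vivo came from the fits with 1 cKO library, whose calls are not used as results. The interaction stayed at 0 in all 18 alternatives. The causes of these changes were not tested, except that fewer samples enter some fits. Under the replicate block the counts of called members were 1 unstimulated and 1 and 1 for stimulation in WT and cKO, besides the 0 above, and with the numbers crossed in cKO they were 1, 1, 1 and 1 (same-numbered libraries correlated within a genotype but not across). No paired analysis was possible in vivo because the columns carry no replicate number. The fits without 2 libraries and with crossed numbers were added after seeing the data. Groups of 2 and unknown depth limit every p-value here.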
